A study of Mus musculus with 6 samples.

Results

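The mitochondrial ribosomal protein genes were examined as a group in cochlear RNA from wildtype and *Pou4f3(Δ/+)* mice. Members were taken by symbol, as *Mrpl* (large subunit) or *Mrps* (small subunit) followed by a number and, in some, a letter. Of the 51802 gene symbols in the files, 78 matched, 49 of them *Mrpl* and 29 *Mrps*. Apart from *Mrps36*, described with the subunits, these genes encode the protein part of the mitoribosome, which translates the few proteins that the mitochondrial genome still encodes. All of its proteins are made from nuclear genes in the cytosol and are imported, then assembled in the matrix on the mitochondrial rRNAs. The products are subunits of the respiratory chain and of ATP synthase, on which energy-demanding cochlear cells depend, and inherited variants in some mitoribosomal proteins are known causes of hearing loss.

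The mice were 2 months old and on the C57/BL6J strain background, a strain known to lose hearing with age. The *Pou4f3(Δ/+)* mice carry 1 allele with a knock-in frameshift deletion, copied from a human deafness family, in *Pou4f3*, a transcription factor of hair cells. There were 3 wildtype samples, numbered 3, 4 and 5, and 3 *Pou4f3(Δ/+)* samples, numbered 1, 2 and 3. The comparison asked whether the heterozygous mutation goes with a different cochlear transcript level.

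Summed counts were 14295069 to 17696784 per sample. The RNA came from whole cochleae, in which hair cells are few, and in such bulk samples fewer cells of a type and less RNA per cell cannot be told apart. Of the markers, 11 of 11 cochlear genes and 11 of 11 hair cell genes passed the filter on low counts, and 1 of 6 skeletal muscle genes did, all 6 together holding 33 to 81 counts per sample. *Pou4f3* itself had 68, 72 and 88 counts in the wildtype samples and 66, 97 and 52 in the *Pou4f3(Δ/+)* samples, which pool both alleles and so give no check of the genotype labels. *Pou4f3(Δ/+)* samples 1 and 2 lay far from the rest in a principal component analysis (23.2 and 40.2 on the first axis, which holds 32.5% of the variance, against -21.5 to -11.7). In these same samples the 9 B cell markers summed to 683 and 737 CPM (counts scaled to the normalized total of the sample), against 379 to 421 in wildtype and 428 in *Pou4f3(Δ/+)* sample 3. The main results were therefore also computed without samples 1 and 2.

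All 78 members were expressed above the filter in the whole-cochlea RNA, which also held much blood cell RNA. The 7 neutrophil markers summed to 11584.5 to 14212 CPM per sample and the 7 red cell markers to 8630 to 13397. The 11 hair cell markers summed to 140 to 163 CPM. Member levels are therefore those of the mixed tissue and are not assigned to a cell type. Levels between genes were compared as FPKM, fragments scaled to transcript length and to the counted fragments of the sample, summed over the transcripts of a symbol. The median member had a mean of 20.2 FPKM over the 6 samples, with 21.2 for the large subunit genes and 18.02 for the small subunit genes. Apart from *Mrps23*, the member means lay between 5.59 and 67.7 FPKM. The 4 highest were *Mrps6* (67.7), a small subunit protein with a bacterial counterpart, *Mrpl42* (58.8), which is specific to mitochondria, *Mrpl24* (54.6), which lies near the exit of the polypeptide tunnel, and *Mrpl20* (48.9), an rRNA-binding protein of the large subunit. *Mrps6* ran from 62.3 to 70.2 FPKM in wildtype and from 63.8 to 73.4 in *Pou4f3(Δ/+)*, so the groups overlapped, and it overlapped *Mrpl42* (49.6 to 64.6 over all samples) as well. At the other end were *Mrpl1* (6.61), *Mrpl19* (6.47) and *Mrpl57* (5.59), whose sample values overlapped each other.

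FPKM and counts ranked the members differently. Over the 78 members, Spearman's rho between the spliced length of the most abundant transcript and the mean level was -0.48 for FPKM and 0.22 for CPM, which is a description across genes that share libraries. *Mrps25*, a protein specific to mitochondria in the small subunit, shows the difference: it had 62.6 ± 4.8 CPM in wildtype (SD, n = 3) but 12.01 FPKM, since its main listed transcript is 6073 bases long. Of the 31-base words in that transcript, 74.6% also occur in other genes, chiefly *Nr2c2*, so its level is uncertain. Counted in the same way, 38 members share over 10% of their words with other genes and 6 share over 50%. Among the members named here for their level, the share was 33.8% in *Mrps6*, 28.8% in *Mrpl42*, 45.0% in *Mrpl24* and 41.3% in *Mrpl19*, which are uncertain to that extent.

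**Figure D1:**
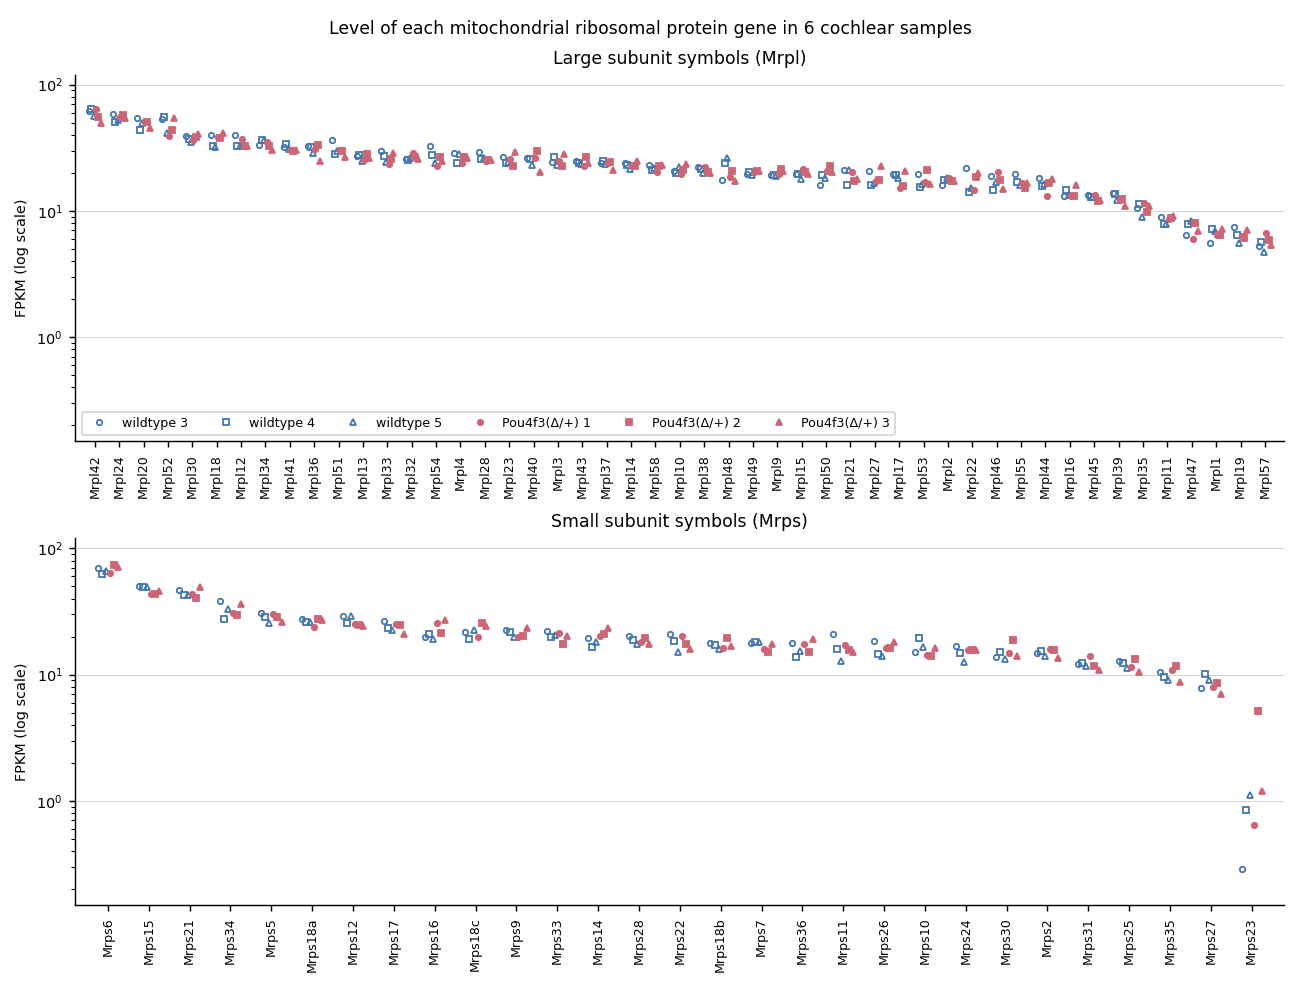
Level of each of the 78 genes in each of the 6 samples, as FPKM on a log axis, ordered by mean level within each subunit. Open blue symbols are wildtype and filled red symbols *Pou4f3(Δ/+)*; the symbols of a gene mostly overlap, the members other than *Mrps23* have means between 5.59 and 67.7 FPKM, and *Mrps23* lies below with its highest value in *Pou4f3(Δ/+)* sample 2.

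*Mrps23* was the exception in both level and spread. It encodes a mitochondria-specific protein of the small subunit and lies on chromosome 11 (GRCm38, chr11:88204388-88211507, plus strand). Its counts were 3, 16 and 15 in the wildtype samples and 15, 103 and 14 in the *Pou4f3(Δ/+)* samples, or 0.29, 0.84 and 1.12 FPKM against 0.64, 5.14 and 1.19. One sample, *Pou4f3(Δ/+)* 2, was thus 6.08 times the highest of the other samples in CPM, and on that scale the other *Pou4f3(Δ/+)* samples lay within the wildtype range. The mean over all samples was 1.54 FPKM, and the next lowest member, *Mrpl57*, was 3.64 times as high. None of the 31-base words of its main transcript occurs in another annotated gene. The log2 fold change of 1.98 (SE 0.89, adjusted p = 0.643, edgeR quasi-likelihood test) was 0.33 without *Pou4f3(Δ/+)* sample 2 and 0.40 without samples 1 and 2. Some other genes that respiring cells need were also listed at or near 0 in these files. *Ndufs3*, a core subunit of complex I, had 0 counts in every sample. *Uqcrc1*, a core subunit of complex III, had 24 to 81 counts in 5 samples and 347 in *Pou4f3(Δ/+)* sample 3. The part that counting plays in these low values was not tested, and *Mrps23* is therefore described as listed at a low level.

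The members are spread over 17 chromosomes, with 11 members on chromosome 11 and 8 on chromosome 17, and what they share was looked for in their promoters. Promoters of nuclear genes for mitochondrial proteins are known targets of nuclear respiratory factor 1 (NRF1), of ETS factors such as GABP, and of YY1. RefSeq windows (GRCm38.p6) from 250 bases before to 50 bases after the start were matched for 69 of the 78 members. The letters GCGCATGC (NRF1), CCGGAAG (ETS) and ATGGCGGC (YY1) were searched on both strands. The ETS letters were in 25 windows (36.2%, against 8.86% of 32851 windows of all genes, noncoding ones included), the YY1 letters in 12 (17.4% against 2.24%) and the NRF1 letters in 8 (11.6% against 2.71%). The NRF1 letters were in 7 of 43 large subunit windows (16.3%) and 1 of 26 small subunit windows (3.85%), a difference that was not tested. In 34 windows (49.3%) none of the 3 occurred, which says only that these letters are not in the window. The 120 bases before the RefSeq start are printed for 7 genes chosen after the matches and values were seen. *Mrpl22*, *Mrpl9*, *Mrpl43* and *Mrps27* show what the matches look like, *Mrps23* is the member with the low level, and *Mrps15* and *Mrpl50* are the members with an unadjusted p under 0.05. Letters run 5′ to 3′ on the strand of the gene, and capitals mark a match on either strand.
Mrpl22, chr11:58171544-58171663, plus strand: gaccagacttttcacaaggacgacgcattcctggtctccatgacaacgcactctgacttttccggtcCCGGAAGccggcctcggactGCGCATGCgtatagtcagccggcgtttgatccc
Mrpl9, chr3:94443216-94443335, plus strand: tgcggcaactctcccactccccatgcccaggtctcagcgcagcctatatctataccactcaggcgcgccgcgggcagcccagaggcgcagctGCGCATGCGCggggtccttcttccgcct
Mrpl43, chr19:45006443-45006562, minus strand: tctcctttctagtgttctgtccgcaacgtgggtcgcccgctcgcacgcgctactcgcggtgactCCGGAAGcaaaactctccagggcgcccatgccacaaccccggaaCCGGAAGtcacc
Mrps27, chr13:99344666-99344785, plus strand: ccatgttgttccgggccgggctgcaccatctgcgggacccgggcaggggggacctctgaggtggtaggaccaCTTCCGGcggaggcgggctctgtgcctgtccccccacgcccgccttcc
Mrps23, chr11:88204268-88204387, plus strand: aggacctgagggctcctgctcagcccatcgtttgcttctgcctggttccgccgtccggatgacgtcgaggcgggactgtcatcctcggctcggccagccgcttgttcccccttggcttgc
Mrps15, chr4:126046808-126046927, plus strand: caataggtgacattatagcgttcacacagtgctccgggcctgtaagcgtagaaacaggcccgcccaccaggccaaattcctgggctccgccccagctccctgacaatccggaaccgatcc
Mrpl50, chr4:49521084-49521203, minus strand: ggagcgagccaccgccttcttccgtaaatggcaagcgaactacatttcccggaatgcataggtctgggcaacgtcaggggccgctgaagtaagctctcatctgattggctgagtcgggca
The *Mrpl22* window has an ETS match starting 53 bases and an NRF1 match starting 33 bases before the start, and a YY1 match from base 23 of the transcript. *Mrpl9* has NRF1 letters on both strands that overlap each other, 28 and 26 bases before it, and a YY1 match from base 16. *Mrpl43* has ETS matches 56 and 12 bases before the start, and *Mrps27* has 1 on the opposite strand, 48 bases before, with a YY1 match from base 18. *Mrps23* has an ETS match only past its start, from base 16 of the transcript, and *Mrpl50* a YY1 match from base 31. *Mrps15* has none of the 3 in its whole window.

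The summed level of the members was nearly the same in both genotypes. In CPM after TMM normalization, the 78 genes summed to 2185, 2062 and 2044 in the wildtype samples and to 2093, 2147 and 2059 in the *Pou4f3(Δ/+)* samples, with every *Pou4f3(Δ/+)* value inside the wildtype range. The means were 2097 ± 76.8 and 2100 ± 44.2 (SD, n = 3 each), a difference of 0.15%. The difference was smaller than either SD and had no stable sign: it was -0.49% in summed FPKM, between -1.10% (without wildtype sample 5) and 2.30% (without wildtype sample 3) with 1 sample left out, and -1.78% without *Pou4f3(Δ/+)* samples 1 and 2. As a share of all counts, the members made up 0.203% to 0.217% of each sample.

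The large subunit genes summed to 1425, 1349 and 1334 in wildtype and to 1365, 1395 and 1347 in *Pou4f3(Δ/+)*. The small subunit genes summed to 760, 713 and 710 and to 728, 752 and 712. The groups overlapped in both. The ratio of large to small was 1.88, 1.89 and 1.88 in wildtype and 1.88, 1.85 and 1.89 in *Pou4f3(Δ/+)*, so the balance between subunits varied by less than the sums did. By structure, *Mrps30* and *Mrps18a* encode proteins of the large subunit and *Mrps36* encodes a component of the 2-oxoglutarate dehydrogenase complex. When they were moved accordingly, the differences were 0.15% over 51 large subunit genes and -0.02% over 26 small subunit genes.

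**Figure D2:**
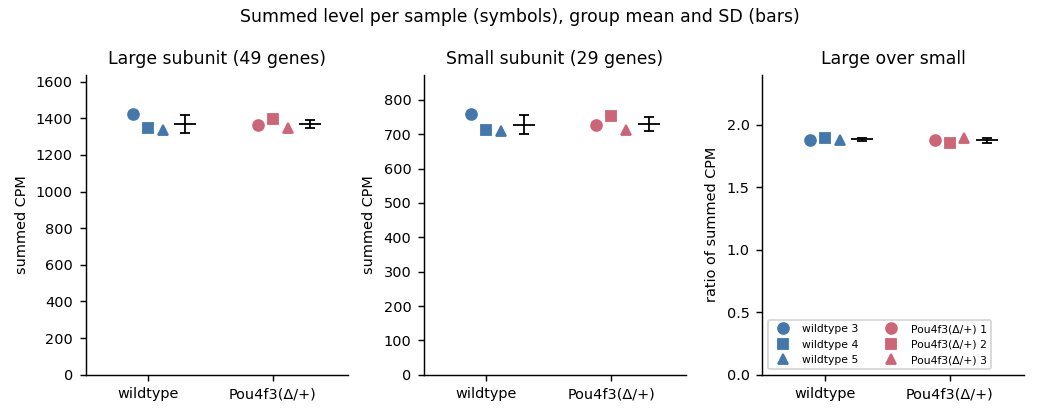
Summed CPM of the large and small subunit genes and their ratio in each sample (symbols), with the group mean and SD (bars, n = 3). The axes start at 0; in all 3 panels the groups overlap, with mean sums of 1369 and 1369 for the large and 728 and 731 for the small subunit.

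The level of the members also differed between samples of 1 genotype. Wildtype sample 3 was the highest of the 6 samples in 25 members (32.1%), while it was the highest in 14.3% of all genes tested. *Pou4f3(Δ/+)* sample 3 was the lowest in 21 members (26.9%, against 15.7% of all genes). The median deviation of a member from its own mean, on the log2(CPM + 0.5) scale, was 0.069, -0.021 and -0.052 in the wildtype samples and -0.017, 0.018 and -0.031 in the *Pou4f3(Δ/+)* samples. In wildtype sample 3 the cytosolic ribosomal proteins (0.119) and the nuclear oxidative phosphorylation genes (0.127) were also higher. Within a member, the coefficient of variation over all 6 samples had a median of 8.30%, against 12.2% for all genes tested. *Mrpl49*, a mitochondria-specific protein of the large subunit chosen here for its value, was the steadiest at 2.84%. Apart from *Mrps23* (138%), *Mrpl22* was the most variable at 19%, and 43.2% of the 31-base words of its main transcript also occur in the near copy *Gm6997*.

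Gene by gene, no member was called different. The edgeR quasi-likelihood test on all 17136 genes that passed the filter, with Benjamini-Hochberg adjustment, gave 0 members with an adjusted p under 0.05, and 0% of all genes were called. The smallest adjusted p of a member was 0.643. With DESeq2 0 members were called, while 0.373% of all genes were (64 genes). At an unadjusted p under 0.05 there were 2 members (2.56%), where all genes gave 7.64%. One was higher in *Pou4f3(Δ/+)* (3.50% of all genes were) and one lower (4.14%). The genotypes did not overlap in 7 members (8.97%, against 12.7% of all genes), with 4 higher (background 6.07%) and 3 lower (background 6.59%). The shares at an unadjusted p and of groups that did not overlap were below those of all genes in this fit, a difference that was not tested. For groups that did not overlap the order turned with FPKM values (10 members, 12.8%, against 12.1%), without wildtype sample 3 (19 members, 24.4%, against 23.5%) and without *Pou4f3(Δ/+)* samples 1 and 2 (41 members, 52.6%, against 49.2%). The fitted log2 fold change was above 0 in 40 members and below 0 in 38. Its median was 0.009 over the members, 0.011 over the large subunit, 0.007 over the small subunit and -0.003 over all genes tested.

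The data also bound how large a difference in whole-cochlea RNA could have gone unseen. They do not bound a change confined to hair cells, which are few in these samples. The 95% interval of the fold change lay within 1.5-fold either way in 76 of 78 members (97.4%), against 63.0% of all genes tested. All 49 large subunit members were inside, as were 27 of 29 small subunit members. The exceptions were *Mrps16*, whose interval on the log2 scale reached 0.60, and *Mrps23*, whose interval ran from -0.05 to 4.01. Without *Mrps23*, the fitted log2 fold changes ran from -0.19 to 0.30. The median standard error of a member was 0.108, against 0.135 for all genes.

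**Figure D3:**
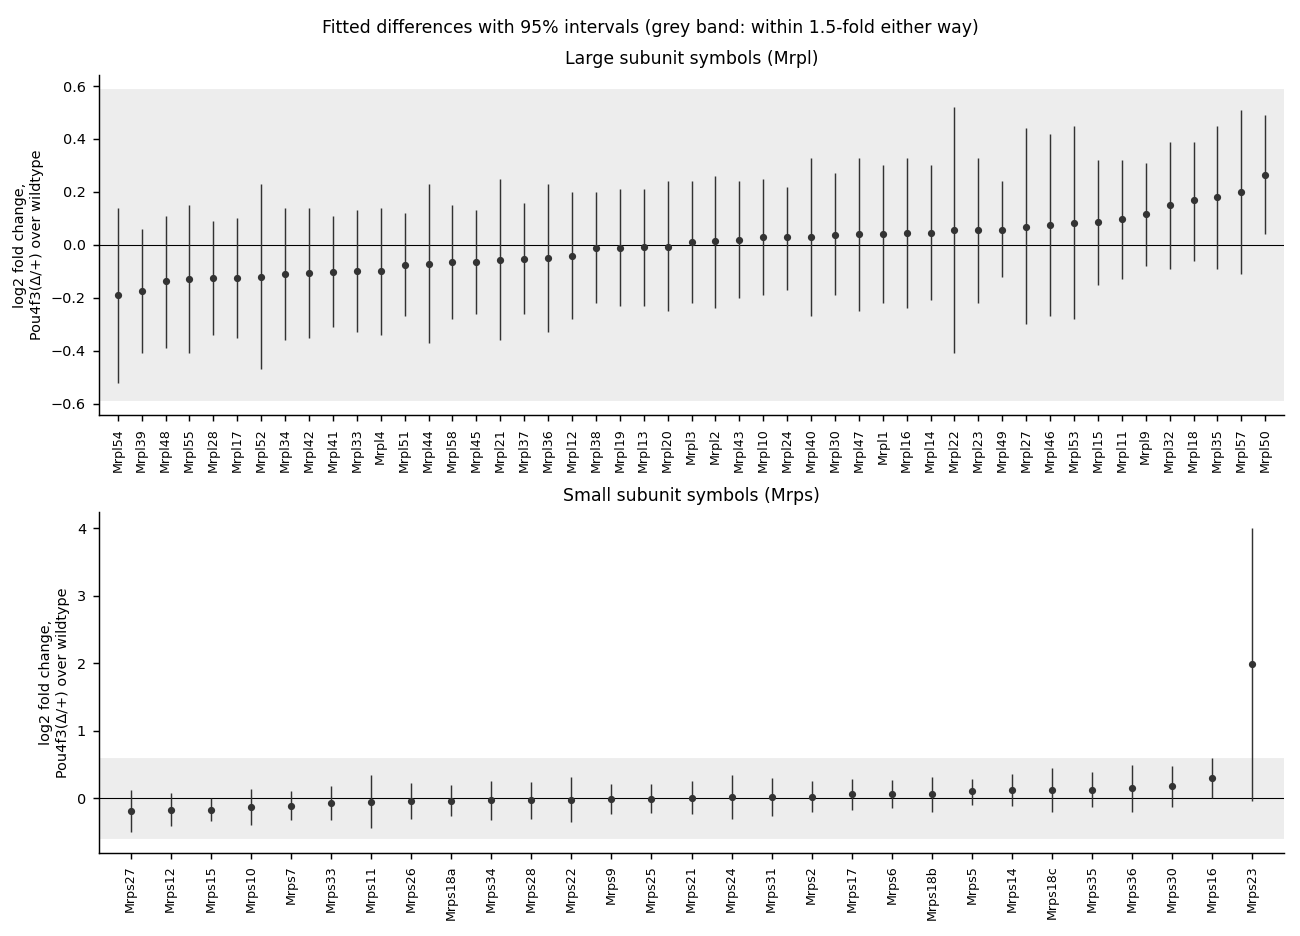
Log2 fold change of *Pou4f3(Δ/+)* over wildtype for each member (points) with its 95% interval from the edgeR fit (bars), ordered by value within each subunit; the panels have different vertical scales. The grey band marks changes within 1.5-fold, and 76 of the 78 intervals lie inside it, with *Mrps16* and *Mrps23* reaching past its upper edge.

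Both members with an unadjusted p under 0.05 had groups that did not overlap. *Mrpl50*, a mitochondria-specific large subunit protein linked to human hearing loss (chr4:49512596-49521093, minus strand), had 34.2, 40.2 and 38.5 CPM in wildtype and 44.0, 48.95 and 42.6 in *Pou4f3(Δ/+)*. Every *Pou4f3(Δ/+)* sample was above every wildtype sample. The log2 fold change was 0.26 (SE 0.10, unadjusted p = 0.0242, adjusted p = 0.643, edgeR), so it did not pass. *Mrps15*, a small subunit protein whose bacterial counterpart binds the rRNA directly (chr4:126046925-126055532, plus strand), had 47.3, 46.4 and 46.4 CPM in wildtype and 40.6, 41.5 and 42.2 in *Pou4f3(Δ/+)*. All 3 *Pou4f3(Δ/+)* samples were below wildtype, and the SDs were 0.54 and 0.82 CPM. Its log2 fold change of -0.17 (SE 0.08, unadjusted p = 0.0472, adjusted p = 0.643, edgeR) did not pass either. Neither gene shares a 31-base word of its main transcript with another gene.

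**Figure D4:**
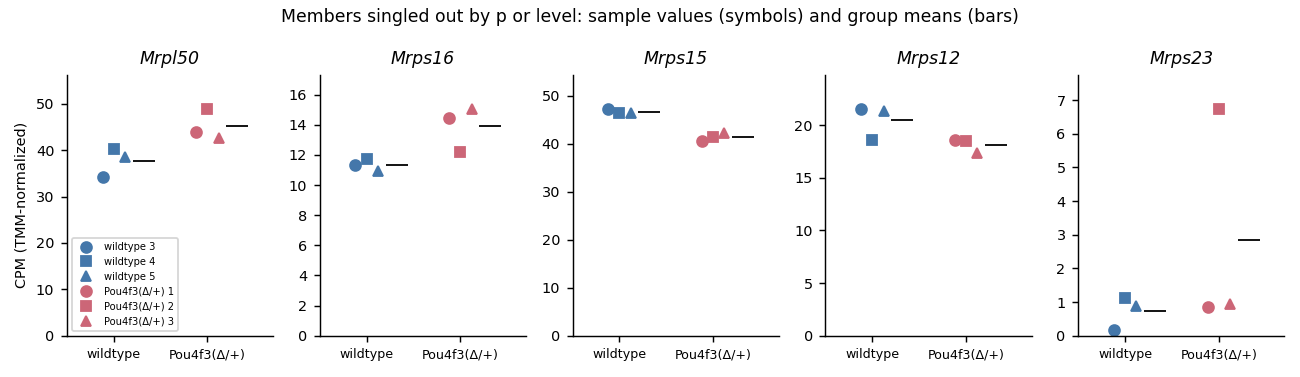
CPM in each sample (symbols) and group means (bars) of *Mrpl50*, *Mrps16*, *Mrps15*, *Mrps12* and *Mrps23*, with each axis starting at 0. The groups do not overlap in the first 3, *Mrps12* overlaps by a small margin, and in *Mrps23* the *Pou4f3(Δ/+)* mean rests on sample 2 (6.75 CPM).

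*Mrps16*, a small subunit protein whose loss causes a human respiratory chain disorder, had 11.3, 11.7 and 10.9 CPM in wildtype and 14.4, 12.2 and 15.1 in *Pou4f3(Δ/+)*. The groups did not overlap, and the log2 fold change was 0.30 (SE 0.13, adjusted p = 0.643, edgeR). The other 4 members whose groups did not overlap, named because their count is small, were *Mrpl9* and *Mrpl49* on the higher side (log2 fold changes 0.12 and 0.06) and *Mrpl28* and *Mrpl41* on the lower side (-0.13 and -0.10), all with adjusted p of 0.739 or more.

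After *Mrps16* and *Mrps23* (log2 fold change 1.98, described above), the members next in order of p within each subunit were fitted between -0.19 and 0.20. Among large subunit genes, *Mrpl18*, which is known to bind the RNA placed where bacteria have 5S rRNA, had a log2 fold change of 0.17 (SE 0.10), *Mrpl35* 0.18 (SE 0.12), *Mrpl57* 0.20 (SE 0.14) and *Mrpl32*, which is matured by a mitochondrial protease before assembly, 0.15 (SE 0.11). *Mrpl39* was at -0.17 (SE 0.10). In *Mrpl18* the 3 *Pou4f3(Δ/+)* samples were close together (46.4, 46.3 and 48.0 CPM) and above 2 of the wildtype samples (38.7 and 38.9), while wildtype sample 3 (47.4) lay among them. Among genes with *Mrps* symbols, *Mrps12*, which sits at the decoding site, had 21.6, 18.6 and 21.3 CPM in wildtype and 18.6, 18.5 and 17.4 in *Pou4f3(Δ/+)*. Its log2 fold change was -0.18 (SE 0.11), with *Mrps27* at -0.19 (SE 0.14) and *Mrps30*, whose protein is in the large subunit by structure, at 0.17 (SE 0.13). The adjusted p of these 8 members ranged from 0.679 to 0.751. These values depended on single libraries. With 1 sample left out, *Mrpl32* ran from 0.05 (without *Pou4f3(Δ/+)* sample 1) to 0.24 (without sample 3), *Mrps30* from 0.03 (without sample 2) to 0.26 (without sample 3), *Mrpl35* from 0.10 to 0.25 and *Mrpl57* from 0.11 to 0.28 (both lowest without sample 1), and *Mrpl18* reached 0.27 without wildtype sample 3. *Mrpl39* ran from -0.22 to -0.09 (the latter without *Pou4f3(Δ/+)* sample 3) and *Mrps27* from -0.28 to -0.11. On FPKM values (limma-trend on log2(FPKM + 0.5)), *Mrpl35* and *Mrpl32* were both at 0.07. Without *Pou4f3(Δ/+)* samples 1 and 2, *Mrpl32* was at -0.04, *Mrps30* at -0.02, *Mrpl57* at 0.03, *Mrpl39* at -0.34 and *Mrps27* at -0.37.

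At the stalk and at the tunnel exit, the fitted log2 fold changes lay between -0.06 and 0.10. The stalk, where elongation factors bind, is formed by copies of *Mrpl12* on *Mrpl10*, with *Mrpl11* at its base. *Mrpl12* had 51.4, 41.3 and 41.5 CPM in wildtype and 45.7, 42.6 and 42.2 in *Pou4f3(Δ/+)*, with wildtype sample 3 again the highest. The log2 fold changes were -0.04 (*Mrpl12*), 0.03 (*Mrpl10*) and 0.10 (*Mrpl11*), with standard errors of 0.11, 0.10 and 0.10. Around the exit of the tunnel, where new chains meet the inner membrane, *Mrpl22* was at 0.06 (SE 0.20), *Mrpl23* at 0.06 (SE 0.12), *Mrpl24* at 0.03 (SE 0.09) and *Mrpl45*, which contacts the membrane, at -0.06 (SE 0.09). *Mrpl23* is uncertain, since 77.0% of the 31-base words of its main transcript also occur in another gene, its pseudogene *Mrpl23-ps1*, which had 26 to 39 counts of its own per sample.

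Of the other genes linked to human hearing loss, *Mrps2* had 31.3, 32.1 and 29.8 CPM in wildtype and 33.3, 33.2 and 27.9 in *Pou4f3(Δ/+)*, and *Mrps7* had 33.1, 29.6 and 29.6 against 27.8, 27.7 and 29.7. Both pairs of groups overlapped. Their log2 fold changes were 0.02 (SE 0.10) and -0.12 (SE 0.09), with adjusted p of 0.967 and 0.763 from edgeR.

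The 3 *Mrps18* paralogs occupy different places, with *Mrps18a* in the large subunit and *Mrps18b* and *Mrps18c* in the small one. *Mrps18a* had 22 to 26.2 CPM over the 6 samples, *Mrps18b* 16.8 to 20.6 and *Mrps18c* 12.3 to 16.5. No 31-base word of the main *Mrps18a* transcript occurs in another gene, but 64.3% of those of *Mrps18b* (chiefly in *Gm16279*) and 35.5% of those of *Mrps18c* do, so the values of the latter pair are uncertain. The log2 fold changes were -0.04, 0.06 and 0.12, each smaller than its standard error of 0.10, 0.12 and 0.14. With 1 sample left out *Mrps18c* ran from 0.02 to 0.23. *Mrps36*, which shares 41.6% of its words, was at 0.15 (SE 0.15) and ran from 0.07 to 0.25. Of the 48 members with a bacterial counterpart, 28 were fitted above 0 (median 0.017), and of the 30 specific to mitochondria 12 were (median -0.031).

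Transcripts of the members were tested apart, since the files list values per transcript. By the GENCODE M21 annotation, 163 of the 323 listed transcripts of the 78 members are protein coding and 80 are retained introns. A further 57 are processed transcripts without a reading frame and 23 are targets of nonsense-mediated decay. Protein-coding transcripts held 85.8% to 86.7% of the members' FPKM in every sample. In 70 members the most abundant transcript was protein coding. In 8 it was not, with *Mrps26* (9.74% of its deposited FPKM in protein-coding transcripts) and *Mrps14* (21.8%) the lowest. In *Mrps26* a retained-intron transcript took 90.3%.

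Of the 175 member transcripts tested, 0 had an adjusted p under 0.05 in edgeR, as did 0% of all 38347 transcripts. At an unadjusted p under 0.05 there were 6 (3.43%, against 4.14% of all transcripts), 3 higher and 3 lower. The first 2 by p were both from *Mrpl15*, a large subunit protein with a bacterial counterpart, and ran in opposite directions. ENSMUST00000130201 had 1.89, 2.34 and 2.18 FPKM in wildtype and 4.83, 4.50 and 3.15 in *Pou4f3(Δ/+)* (log2 fold change 0.96, SE 0.25). ENSMUST00000146665 had 3.44, 3.12 and 3.03 against 1.95, 1.42 and 2.03 (-0.84, SE 0.25). The groups did not overlap in either, and both are annotated as protein coding. *Mrpl15* as a whole had 32.4, 33.3 and 30.6 CPM in wildtype and 36.3, 36.2 and 29.5 in *Pou4f3(Δ/+)*, with a log2 fold change of 0.09 (SE 0.11), so the sum of its transcripts differed less than these 2 did. Counts of transcripts that share exons are estimates and are less certain than their sum. Next were a decay-annotated transcript of *Mrpl32*, ENSMUST00000221699 (0.53 ± 0.21 FPKM in wildtype, 1.52 ± 0.65 in *Pou4f3(Δ/+)*, SD, n = 3), ENSMUST00000145614 of *Mrps26* (1.88 ± 0.12 and 1.28 ± 0.14) and the main transcript of *Mrps15*, ENSMUST00000030675 (47.9 ± 0.37 and 41.8 ± 0.96). The sixth was ENSMUST00000057829, which carries the counts of *Mrpl50*. The adjusted p of all 6 was 0.999.

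The other steps of mitochondrial gene expression were taken from fixed lists, and 0 of their genes had an adjusted p under 0.05 in edgeR. The 5 mitoribosomal proteins that go by other names had a median log2 fold change of 0.067, with 0 at an unadjusted p under 0.05, and *Dap3*, a GTP-binding protein of the small subunit, was at 0.15 (SE 0.08). The 23 tested assembly factors had a median of 0.039, the 15 translation factors 0.030 and the 17 mitochondrial aminoacyl-tRNA synthetases 0.009, each with 0 at an unadjusted p under 0.05. *Mterf3*, which acts in mitoribosome assembly, was at 0.17 (SE 0.11), *Mtif3*, an initiation factor, at 0.19 (SE 0.11) and *Iars2*, which charges isoleucine tRNA, at -0.16 (SE 0.09). Of the 8 genes for regulators of these promoters, which include *Nrf1* (0.13, SE 0.09) and *Gabpa* (0.09, SE 0.07), 0 had an unadjusted p under 0.05 and the median was 0.048.

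The proteins made by the mitoribosome are encoded in mitochondrial DNA, and 12 of these 13 genes were fitted below 0 (median -0.112). Their median deviation was -0.23 and -0.243 in *Pou4f3(Δ/+)* samples 1 and 2, the samples that stand apart. In sample 3 it was 0.255, above the wildtype values of 0.155, 0.143 and 0.082. Of the 12 genes, 4 had an unadjusted p under 0.05. These 4 varied widely within groups: *mt-Atp6*, a subunit of ATP synthase, had 1618, 724 and 316 CPM in wildtype and 21.6, 64.5 and 273 in *Pou4f3(Δ/+)*. Of the 31-base words of *mt-Atp6*, 99.5% also occur in other annotated genes, as do 100% of those of *mt-Co2* and 99.9% of *mt-Co3*, so the counts of these 3 are uncertain. The fourth, *mt-Atp8*, shares 7.47% and was at -2.46 (SE 0.82, adjusted p = 0.643, edgeR). It had 88.2, 30.8 and 10.8 CPM in wildtype and 2.77, 3.93 and 17.2 in *Pou4f3(Δ/+)*, so its groups overlapped. Its low share does not make its counts certain, since they varied as widely. *mt-Nd3* (98.1% shared) and *mt-Nd4l* (98.9%) also varied widely, at 2.32 to 229.7 and 1.64 to 91.0 CPM over the samples. *mt-Nd1*, which shares none, was at -0.11 (SE 0.09). The mitochondrial rRNAs that the members bind were both at 0.24 (SE 0.12 for *mt-Rnr1* and 0.11 for *mt-Rnr2*), with adjusted p of 0.660 and 0.643 from edgeR. Their median deviation was -0.283, -0.148 and 0.064 in the wildtype samples. It was 0.142 and 0.242 in *Pou4f3(Δ/+)* samples 1 and 2, and -0.017 in sample 3. The study's methods name poly(A) selection or rRNA removal for the libraries, so these counts are not read as rRNA levels. Of the 88 nuclear oxidative phosphorylation genes, 67 were fitted below 0 (median -0.059), with 2 higher and 2 lower at an unadjusted p under 0.05 and groups that did not overlap in 2 higher and 8 lower genes. Of all genes tested, 3.50% were higher and 4.14% lower at an unadjusted p under 0.05, and the groups did not overlap in 6.07% and 6.59%, so these counts are not read as a change. The median deviation of these genes was -0.098 and -0.076 in *Pou4f3(Δ/+)* samples 1 and 2, the samples that stand apart, and 0.076 in sample 3. Of the 84 cytosolic ribosomal proteins, 68 were fitted above 0 (median 0.054). Among them 2 were higher and 0 lower at an unadjusted p under 0.05, to be read against the same shares.

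**Figure D5:**
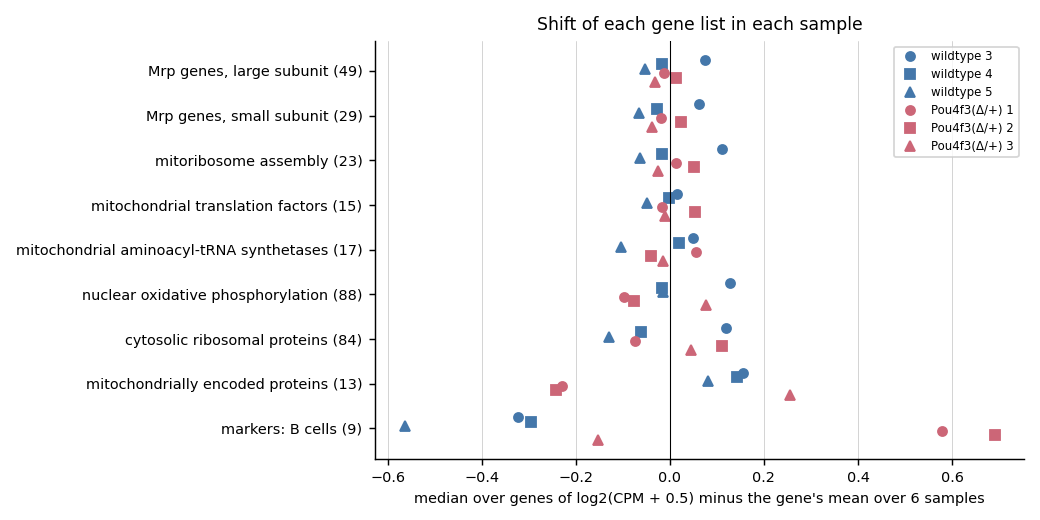
Median shift of each gene list in each sample, as log2(CPM + 0.5) minus the mean of the gene over the 6 samples, with the number of genes tested in brackets. Blue symbols are wildtype and red *Pou4f3(Δ/+)*; the *Mrp* genes stay within 0.1 of 0 in every sample, while the B cell markers reach 0.578 and 0.691 in *Pou4f3(Δ/+)* samples 1 and 2.

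Markers of other cells moved with the samples while the members moved little. At an unadjusted p under 0.05, 8 of 9 B cell markers were higher in *Pou4f3(Δ/+)* (median log2 fold change 0.835), where 3.50% of all genes were. At the same threshold 4 of 8 bone markers were lower (median -0.211), where 4.14% of all genes were. The bone markers summed to 2381, 2531 and 3424 CPM in wildtype, the last in sample 5. In *Pou4f3(Δ/+)* they summed to 2114, 2304 and 2106 CPM. Of the 11 cochlear markers, 7 were fitted below 0 (median -0.17), with *Kcnq1*, a potassium channel of the stria vascularis, at -0.45 (SE 0.13, adjusted p = 0.643, edgeR) and the only one with an unadjusted p under 0.05. Their median deviation was -0.235 and -0.093 in *Pou4f3(Δ/+)* samples 1 and 2 but 0.184 in sample 3, and *Kcnq1* had 28.9, 28.8 and 39.4 CPM in these 3 samples, against 42.8 to 45.7 in wildtype. The 7 red cell markers had a median of 0.296, with 2 higher at an unadjusted p under 0.05. Their median deviation was 0.287 and 0.348 in *Pou4f3(Δ/+)* samples 1 and 2 and -0.184 in sample 3. In wildtype it was -0.359 to -0.029. The 7 neutrophil markers had a median of -0.037 and the 11 hair cell markers -0.022, with 0 hair cell markers at an unadjusted p under 0.05. The part of this cell mixture in the member values was not tested.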

How the data were processed

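RNA-seq libraries came from total RNA of mouse cochleae, 3 wildtype and 3 *Pou4f3(Δ/+)* samples. The authors deposited expected counts (estimated, not whole, not normalized) and FPKM values per transcript. The aligner and counting program are not given in the sources used here. The submitters' processing notes name the build mm8 and DESeq2. Since 99.6% of the listed transcripts occur in GENCODE M21, coordinates are from M21 (GRCm38). The labels do not say whether samples were separate animals, so p-values measure only the spread between these samples.

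Expected counts were summed per symbol, rounded and tested with edgeR 4.0.16 in R 4.3.3 (filterByExpr, minimum count 10, CPM and tests after TMM, quasi-likelihood test, no covariates, Benjamini-Hochberg over all genes or transcripts). Tests were run first on simulated counts. Alternatives were DESeq2 1.42.0, limma 3.58.1 (limma-trend) on log2(FPKM + 0.5, 0.1 or 1), other scalings and filters, and samples left out. FPKM differences on such a scale understate the change of low genes. Intervals and SDs cover these samples, and low counts carry counting error as well. Members and lists were chosen with earlier results of these data known. Members were named by the 6 smallest p in each subunit, the 4 highest and 4 lowest FPKM, or a fixed role, and transcripts by the smallest p. Gtpbp5, listed among the assembly factors, is an older name of Mtg2. Python 3.11.15 was used for summaries.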

Additional observations from a re-analysis of the deposited data

How the results depend on the processing

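In each alternative run, 0 members had an adjusted p under 0.05, and of 449 values of the 30 named members under alternatives 0 did (smallest adjusted p 0.183). The count of members at an unadjusted p under 0.05 was 2 in the edgeR test and 4 (5.13%) under each limma-trend pseudocount (0.5, 0.1 and 1), where 7.24%, 7.2% and 7.23% of all genes were. It ranged from 1 to 3 (all genes 4.21% to 17.4%) when a sample was left out, and was 1 without wildtype sample 3, 4 or 5 or *Pou4f3(Δ/+)* sample 2. The lower member of the pair, *Mrps15*, was not below 0.05 in any of the 6 fits that leave out a sample, with DESeq2 or with no filter, and *Mrpl50* was not without wildtype sample 3 or *Pou4f3(Δ/+)* sample 2. Members whose groups did not overlap numbered 41 (52.6%, all genes 49.2%) without *Pou4f3(Δ/+)* samples 1 and 2, where a single *Pou4f3(Δ/+)* sample remains and is assumed to vary like wildtype, and 9 to 19 (11.5% to 24.4%, all genes 19.5% to 36.4%) with 1 sample left out. The median log2 fold change of the small subunit then ranged from -0.011 to 0.076 (the latter without wildtype sample 3). Member transcripts at an unadjusted p under 0.05 ranged from 2 to 5 (2 without wildtype sample 4 or 5 or *Pou4f3(Δ/+)* sample 1). Of all transcripts 3.45% to 3.9% were, and 7.38% without *Pou4f3(Δ/+)* sample 3 (there 5 of 184 member transcripts). The sign changed in 13 of the 30 named members, of which *Mrps30* had the largest fitted value (0.172). With limma-trend at 0.5, 0.1 and 1, *Mrpl20* was at 0.003, 0.004 and 0.003 and *Mrpl19* at 0.006, 0.007 and 0.005. Without samples 1 and 2, *Mrpl32* was at -0.036, *Mrps30* at -0.017, *Mrpl24* at -0.018, *Mrpl19* at 0.046, *Mrps2* at -0.152 and *Mrps18b* at -0.010, while *Mrpl42* kept its sign and went from -0.108 to -0.298. With 1 sample left out, *Mrpl1* ranged from -0.036 to 0.097, *Mrpl10* from -0.026 to 0.087, *Mrpl12* from -0.094 to 0.072, *Mrpl19* from -0.042 to 0.043, *Mrpl20* from -0.086 to 0.074, *Mrpl22* from -0.075 to 0.288, *Mrpl23* from -0.026 to 0.12, *Mrpl24* from -0.023 to 0.094, *Mrps18a* from -0.095 to 0.028, *Mrps18b* from -0.022 to 0.108 and *Mrps2* from -0.024 to 0.104. Members that kept their sign but moved were *Mrpl42* (-0.191 to -0.015), *Mrps6* (0.007 to 0.119), *Mrpl11* (0.065 to 0.162), *Mrpl45* (-0.094 to -0.03) and *Mrps7* (-0.144 to -0.06). *Mrps23* ranged from 0.325 (without *Pou4f3(Δ/+)* sample 2) to 2.42, and the filter at a mean of 5 FPKM leaves it out. The cause of these changes was not tested. No paired analysis was possible because the groups share fewer than 2 replicate numbers.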
